A study of Mus musculus with 36 samples.

Results

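The 9 genes described here handle or respond to retinoids in fibroblasts: the uptake receptor gene Stra6, the retinoic acid binding protein genes Crabp1 and Crabp2, the enzyme genes Dhrs3, Aldh1a1 and Aldh1a3, the receptor gene Rarb, and the responder genes Rarres1 and Rarres2. They were found by symbol among the 39017 genes of the count table, and each of the 9 matched 1 gene. RNA was sequenced from 36 libraries of mouse pancreatic fibroblasts of the C57BL/6 strain. The 9 groups of 4 libraries were a mono-culture and co-cultures of 48 h with the tumour sub-clones E, H, K, M, N, T and V or with KPC1, a name that the labels do not explain. Tumour cells carried GFP and were removed by flow sorting, so each library holds RNA of the cells kept as fibroblasts. The labels do not say whether the mono-culture was sorted too, nor whether the 4 libraries of a group came from separate cultures, so the p-values below measure the spread between libraries, which may be technical. Rarres1 was selected on its measured counts among the clones in these same libraries, and the other genes were added with results known. Its values are therefore a description with no test.

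Retinol reaches cells bound to the carrier protein Rbp4 and can enter through Stra6, a membrane receptor for that carrier. Inside the cell retinol dehydrogenases oxidise it to retinal, which Dhrs3 can reduce back to retinol, and the aldehyde dehydrogenases of the Aldh1a family turn retinal into retinoic acid. Retinoic acid is carried by Crabp1 and Crabp2 and binds nuclear receptors such as Rarb, which pair with retinoid X receptors on direct repeats of a short DNA motif. Stra6, Dhrs3 and Rarb are known targets of retinoic acid in many cell types. Quiescent pancreatic stellate cells, a source of fibroblasts in this organ, are known for storing retinol as esters made by Lrat.

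Between 12532122 and 21985538 counts were obtained per library. All 10 fibroblast markers examined, such as Col1a1 and Pdgfra, were above 3 counts in every group. The titles of the mono-culture libraries carry the letters PSC, which the labels do not explain. Of the 5 stellate and contractile markers, Acta2 had a mean of 143.3 CPM (reads relative to the library total, scaled by TMM) in mono-culture and 393.5 CPM over the co-cultures, Tagln 36.9 and 129.7 CPM, and Des 3.92 and 3.58 CPM. Gfap had at most 5 counts in a library and Lrat at most 1, with 0 counts in 34 of 36 libraries, which allows up to 3 counts in such a library. The 15 epithelial markers summed to 2.89 to 4.51 CPM in mono-culture, and their group means in co-culture ran from 104 CPM with clone V to 543 CPM with clone N. Krt18, Krt8, Krt19 and Cdh1 made up most of this sum, whereas Epcam, Cldn4, Cldn7, Esrp1, Dsp and St14 stayed at or under 9 counts in every library. At these low counts Epcam, Cldn7, Dsp and St14 had lower mean CPM over the co-cultures than in mono-culture, and Cldn4 and Esrp1 higher. In bulk RNA, fewer cells of a type and less RNA per cell cannot be told apart.

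Compared per length, as RPKM, reads scaled by gene length and library total, Crabp1 was far the most abundant of the 9 genes, with a mean of 92.3 RPKM over the 36 libraries. Dhrs3 followed with 5.25 RPKM, Stra6 with 3.63, Rarres1 with 2.07, Rarb with 1.92, Aldh1a1 with 1.62, Crabp2 with 1.36, Aldh1a3 with 0.523 and Rarres2 with 0.196. The highest group mean exceeded the lowest by between 5.34-fold (Crabp2) and 28.6-fold (Rarres1) among the 8 genes that passed the low count filter. Rarres2 did not pass it. Of the 8, Rarres1, Crabp2 and Aldh1a3 passed through the co-cultures only, with fewer than 4 mono-culture libraries at or above the 0.555 CPM the filter asked for. Rarb, Stra6 and Dhrs3 were all highest in the co-culture with clone M.

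**Figure D1:**
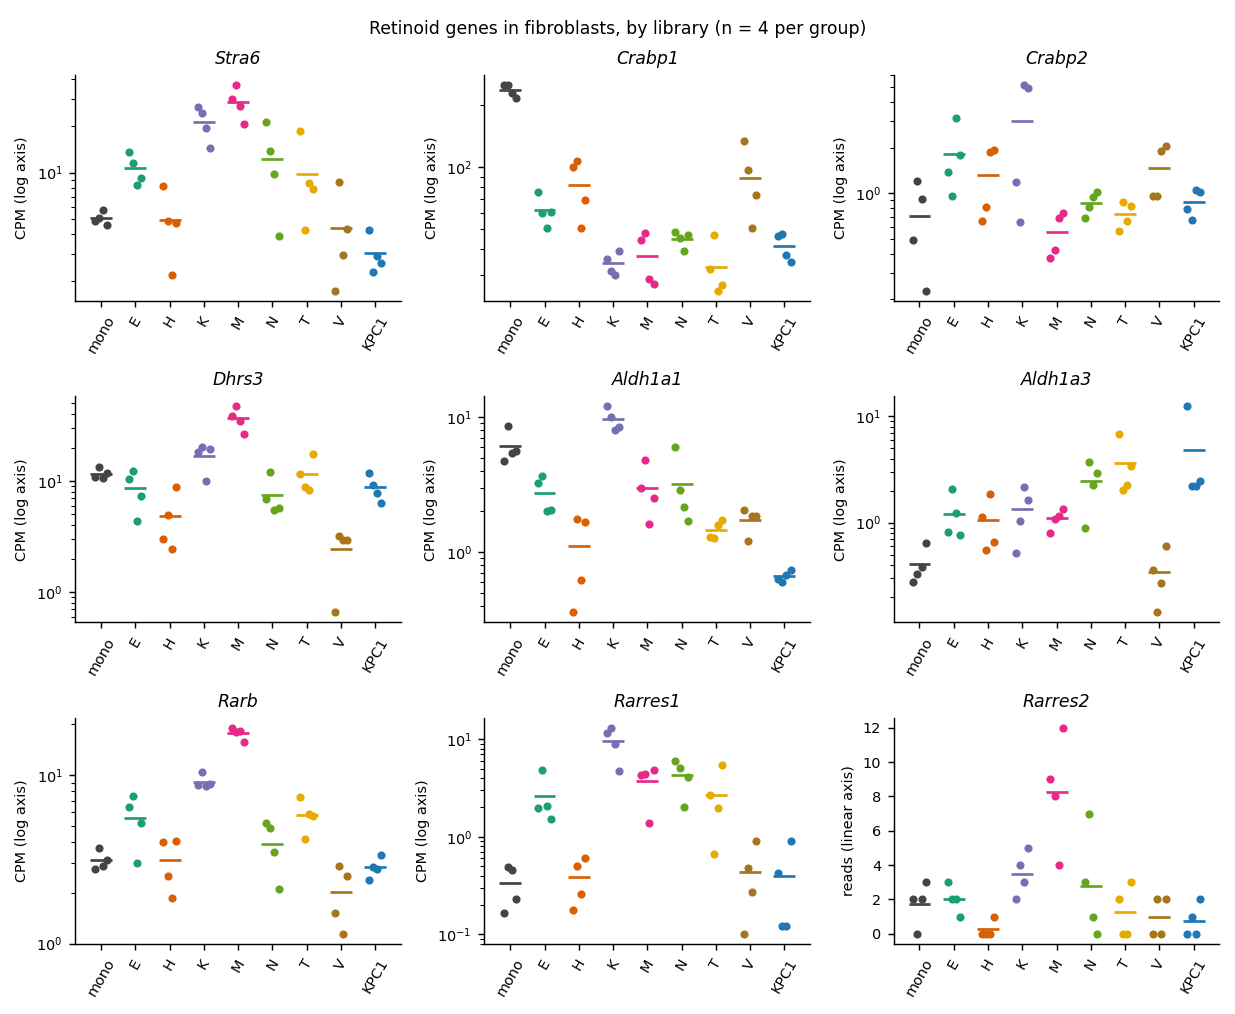
CPM of each gene in each of the 36 libraries by group (log axes), with read counts on a linear axis for Rarres2. Points are libraries and bars are group means (n = 4 each). Mono-culture holds the 4 highest Crabp1 values, clone M the highest means of Rarb, Stra6 and Dhrs3, and clone K the highest mean of Aldh1a1.

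Each co-culture was compared with the mono-culture by edgeR's quasi-likelihood test over 14439 genes, and a gene was called at a Benjamini-Hochberg adjusted p under 0.05 over all of them. Of the 7 genes tested in single co-cultures (all but Rarres1 and Rarres2), clone E gave 4 calls, 2 higher and 2 lower, where 32% of all genes were called, 16.5% higher and 15.5% lower. Clone H gave 3 calls, all lower, against 54.2% of all genes (27.8% higher and 26.4% lower). Clone K gave 4 calls, 3 of them higher, against 19.1% (10.4% higher and 8.69% lower). Clone M gave the most, 5 calls with 3 higher, against 23% (12.2% higher and 10.8% lower). Clones N and T each gave 4 calls, 2 higher and 2 lower, against 39% for clone N (19.7% higher and 19.2% lower) and 49.8% for clone T (25% higher and 24.7% lower). Clone V gave 3 calls, all lower, against 58.3% (29.4% higher and 28.9% lower), and KPC1 gave 3, of which 1 was higher, against 59% (30.5% higher and 28.5% lower). These 8 comparisons share the mono-culture libraries. Crabp2 and Aldh1a3 passed the low count filter through the co-cultures only. Their calls higher than mono-culture are included in these counts and are a description.

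With the 7 clones averaged, 5 of the 7 genes other than Rarres1 and Rarres2 were called, where 49.2% of all genes were: 3 rose (Aldh1a3, Stra6 and Rarb, against 24.3% of all genes called higher) and 2 fell (Crabp1 and Aldh1a1, against 24.9% called lower). Their log2 fold changes were 1.62 for Aldh1a3 (SE 0.519, adjusted p = 0.01), 1.09 for Stra6 (SE 0.357, adjusted p = 0.012), 0.78 for Rarb (SE 0.218, adjusted p = 0.0035), -2.22 for Crabp1 and -1.25 for Aldh1a1 (SE 0.238, adjusted p = 6.3e-05). The call of Aldh1a3 was lost with limma on log2(RPKM + 1), where its value was 0.34 (adjusted p = 0.08). Since Aldh1a3 passed the low count filter through the co-cultures only, its rise is a description. Between KPC1 and the mean of the 7 clones 4 of these 7 differed, against 41.1% of all genes. Of the called genes, 3 were lower with KPC1 (18.8% of all genes) and 1 was higher (22.3%). Rarb (log2 difference -0.92, adjusted p = 0.0014) and Stra6 (-1.83, adjusted p = 0.00043) were lower with KPC1, and the values of Aldh1a1 and Aldh1a3 are given with those genes. All 7 genes tested for differences among the 7 clones passed the F-test, as did 67.5% of all genes. The share called over all genes was thus high in most comparisons, and several of the counts above lie near it.

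**Figure D2:**
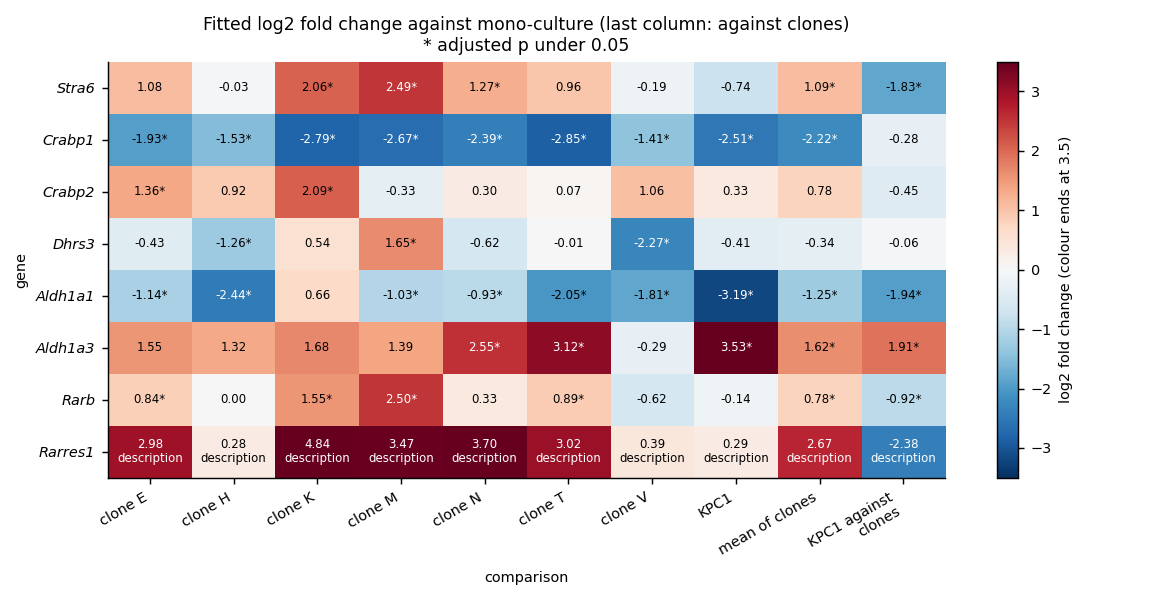
Fitted log2 fold changes of the 8 genes (rows) in the 8 co-cultures and for the mean of the clones, each against mono-culture, and of KPC1 against the mean of the clones (columns). A star marks an adjusted p under 0.05, and the values of Rarres1 are a description with no test. Stars of Crabp2 and Aldh1a3 against mono-culture are a description, since only the co-cultures carried these genes past the filter. Crabp1 is lower in all 8 co-cultures, while Dhrs3 is called higher only with clone M and lower only with clones H and V.

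Stra6 (ENSMUSG00000032327, GRCm38 chr9:58063788-58153996, plus strand), the gene of the retinol uptake receptor, was highest with clones M and K. The 4 mono-culture libraries had 4.90, 5.12, 5.70 and 4.57 CPM. Clone M libraries had 29.7, 36.9, 26.8 and 20.6 CPM, and clone K libraries had 26.5, 24.3, 19.3 and 14.4 CPM. All 8 of these libraries lay above every mono-culture library, while the ranges of clones M and K overlapped. The log2 fold change was 2.49 with clone M (SE 0.442, edgeR adjusted p = 1e-04) and 2.06 with clone K (SE 0.438, adjusted p = 0.001). With clone N the 4 libraries were widely spread, at 21.2, 13.8, 9.80 and 3.91 CPM, and 1 of them lay below mono-culture. That call (log2 fold change 1.27, adjusted p = 0.021) was lost without clone N replicate 1 (0.83, adjusted p = 0.15) or without mono-culture replicate 1 (adjusted p = 0.051) or 4 (adjusted p = 0.057). Clone E had 8.28 to 13.5 CPM, above mono-culture in 4 of 4 libraries, with an adjusted p of 0.058. It was called when clone N replicate 1 or 4, clone T replicate 1 or 2 or clone V replicate 1 or 2 was left out (adjusted p = 0.036 to 0.05). Clone T had 4.29 to 18.7 CPM (log2 fold change 0.96, adjusted p = 0.069; 1.21, adjusted p = 0.027, without clone T replicate 2, and 0.045 and 0.05 without clone N replicate 4 or clone V replicate 2). The lowest group mean was that of KPC1, with 4.27, 2.29, 2.90 and 2.62 CPM in its libraries, all below mono-culture but with an adjusted p of 0.18.

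Crabp1 (ENSMUSG00000032291, chr9:54764748-54773110, plus strand), whose product binds retinoic acid in the cytoplasm, fell in all 8 co-cultures. Mono-culture libraries had 250.3, 250.9, 228 and 216 CPM, and the highest co-culture library had 135 CPM, so the groups did not overlap in any of 32 libraries. For the clones together the log2 value was -2.22 (SE 0.147, adjusted p = 7.4e-13), with 28 of 28 libraries below mono-culture. Clones V, H and E had 88.8 ± 35.9, 82.0 ± 26.4 and 61.9 ± 10.5 CPM (SD, n = 4 each), whereas N, M, K and T had 45.0 ± 4.10, 37.1 ± 10.6, 34.2 ± 4.27 and 32.8 ± 9.93 CPM (SD, n = 4 each). The lowest library of clone E, at 50.9 CPM, lay above the highest of clone N, at 48.5 CPM, and every other pair of neighbours in the order of clones overlapped. The fall was between 1.41 (clone V) and 2.85 (clone T) on the log2 scale, and the clones differed (F-test, adjusted p = 1.4e-06). KPC1 libraries had 46.4, 47.4, 37.4 and 34.9 CPM, and KPC1 and the mean of the clones were not called different (log2 difference -0.28, 95% interval -0.66 to 0.09).

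Crabp2 (ENSMUSG00000004885, chr3:87948666-87953376, plus strand) encodes the related protein that delivers retinoic acid to its receptors, and was low throughout. Mono-culture libraries had 0.495, 1.21, 0.913 and 0.229 CPM. Only the co-cultures carried Crabp2 past the low count filter, so its calls against mono-culture are a description. Clone K libraries split, with 1.18 and 0.650 CPM in replicates 1 and 2 and 5.18 and 4.90 CPM in replicates 3 and 4. The call with clone K (log2 fold change 2.09, SE 0.507, adjusted p = 0.0033) therefore came with overlap in 2 of 4 libraries. Clone E libraries had 1.39, 0.959, 3.13 and 1.79 CPM. Its call (1.36, adjusted p = 0.041) was lost without mono-culture replicate 1 (adjusted p = 0.11) or 4 (0.15) and without clone E replicate 3 (0.19) or 4 (0.061). Clone V was not called (1.06, adjusted p = 0.078), but was without mono-culture replicate 2 (1.48, adjusted p = 0.03) or clone K replicate 2 (0.049). The value for the mean of the clones was 0.78 (SE 0.417, adjusted p = 0.12), and it reached an adjusted p of 0.05 without mono-culture replicate 2 (1.21). The clones differed (F-test, adjusted p = 0.00099), from 0.558 ± 0.187 CPM with clone M to 2.98 ± 2.40 CPM with clone K (SD, n = 4 each).

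Dhrs3 (ENSMUSG00000066026, chr4:144892827-144928209, plus strand), which returns retinal to retinol, moved in opposite directions with different clones. Mono-culture libraries had 10.8, 13.3, 10.6 and 11.9 CPM. Clone M libraries had 38.8, 47.0, 34.5 and 26.3 CPM and lay above every other library of the series. Clone V libraries had 0.661, 3.18, 2.94 and 2.93 CPM and clone H libraries 2.99, 4.90, 2.43 and 8.90 CPM, all 8 below mono-culture. The log2 fold change was 1.65 with clone M (SE 0.36, adjusted p = 0.001), -2.27 with clone V (SE 0.401, adjusted p = 1.8e-05) and -1.26 with clone H (SE 0.375, adjusted p = 0.0054). The other 5 co-cultures were not called, with values from -0.62 (clone N) to 0.54 (clone K). Averaged over clones these values nearly cancelled (-0.34, adjusted p = 0.3), while the clones differed (F-test, adjusted p = 7.9e-09).

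Aldh1a1 (ENSMUSG00000053279, chr19:20492715-20643465, plus strand), an enzyme that makes retinoic acid from retinal, was lower in 7 of 8 co-cultures. Mono-culture libraries had 4.73, 8.64, 5.40 and 5.62 CPM. The group mean was lowest with KPC1, whose libraries had 0.633, 0.603, 0.678 and 0.741 CPM (log2 fold change -3.19, SE 0.401, adjusted p = 7.2e-08). Clone K was the exception, at 12.02, 10.01, 8.09 and 8.50 CPM, and was not called different from mono-culture (0.66, adjusted p = 0.17, 95% interval -0.02 to 1.35). Clones H (-2.44), T (-2.05) and V (-1.81) had all 4 libraries below every mono-culture library, with adjusted p-values of 2.5e-06, 2.7e-05 and 7.3e-05. The calls with clones E (-1.14, adjusted p = 0.012), M (-1.03, adjusted p = 0.03) and N (-0.93, adjusted p = 0.032) were each lost without mono-culture replicate 2 (adjusted p = 0.064, 0.13 and 0.14). Those of clones M and N were also lost without any of 3 libraries of their own group (clone M replicates 1, 3 and 4, adjusted p = 0.06, 0.13 and 0.074; clone N replicates 2, 3 and 4, adjusted p = 0.075, 0.11 and 0.12). KPC1 lay below the mean of the clones (log2 difference -1.94, SE 0.344, adjusted p = 5.6e-05).

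Aldh1a3 (ENSMUSG00000015134, chr7:66390890-66427517, minus strand), a second enzyme of this family, showed the opposite order for KPC1. Mono-culture libraries had 0.275, 0.330, 0.380 and 0.640 CPM. Only the co-cultures carried Aldh1a3 past the low count filter, so its calls against mono-culture are a description. KPC1 libraries had 12.4, 2.23, 2.22 and 2.45 CPM, clone T libraries 6.85, 2.03, 2.24 and 3.43 CPM and clone N libraries 0.890, 3.68, 2.28 and 2.95 CPM. All 12 lay above mono-culture, and the log2 fold changes were 3.53 (adjusted p = 1e-05), 3.12 (adjusted p = 8.4e-05) and 2.55 (adjusted p = 0.0012). Clones E, H, K and M had values between 1.32 and 1.68 with adjusted p-values from 0.054 to 0.11. KPC1 replicate 1 was 12.4 CPM against 2.22 to 2.45 CPM in the other 3, and without it clones E, H and K were called (adjusted p = 0.021, 0.03 and 0.019). Clones E and K were also called without clone N replicate 1 or clone T replicate 1 (adjusted p = 0.045 to 0.049), and without clone K replicate 1 (0.048 and 0.031), and clone K without KPC1 replicate 2 (0.05). Clone V libraries, at 0.356, 0.144, 0.272 and 0.598 CPM, overlapped mono-culture. The difference between KPC1 and the mean of the clones was 1.91 (SE 0.344, adjusted p = 6.7e-05) and rested on KPC1 replicate 1, since it was 0.84 without it (adjusted p = 0.076).

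Rarb (ENSMUSG00000017491, chr14:16430839-16819156, minus strand) encodes a nuclear receptor of retinoic acid. It was highest with clone M and next with clone K. Mono-culture libraries had 2.75, 3.69, 2.89 and 3.11 CPM. Clone M libraries had 18.99, 17.9, 18.1 and 15.6 CPM, and clone K libraries had 8.68, 10.3, 8.62 and 8.86 CPM. Clone M stood above all other libraries and clone K above all but those of clone M, without overlap. The log2 fold change was 2.50 with clone M (SE 0.274, adjusted p = 4.3e-08), 1.55 with clone K (SE 0.27, adjusted p = 9.1e-05) and 0.89 with clone T (SE 0.272, adjusted p = 0.0071). Clone E had 3.01 to 7.53 CPM, and its call (0.84, adjusted p = 0.018) was lost without mono-culture replicate 1 (adjusted p = 0.056) and without clone E replicate 1 (0.053) or 2 (0.082). Clone H (0.00), clone N (0.33), clone V (-0.62, adjusted p = 0.062) and KPC1 (-0.14) were not called. Clone V was called without clone V replicate 2 (-0.85, adjusted p = 0.02) or 4 (-0.73, adjusted p = 0.047), and without clone E replicate 3 or clone N replicate 4 (adjusted p = 0.046 each). Exons of Top2b lie on the opposite strand over exons of Rarb in GENCODE, and whether counting used strand is not stated in the sources used here. Top2b ranged from 159 ± 10.5 CPM without tumour cells to 192 ± 33.4 CPM with KPC1 (SD, n = 4 each). It had 180.0 CPM with clone M and 186 CPM with clone K. Whether reads of Top2b entered the counts of Rarb was not tested.

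The DNA before the starts of these genes was read because Rarb is known for a repeat of this kind, and because Rarb, Stra6 and Dhrs3 were high together with clone M. RefSeq windows of GRCm38.p6, from 250 bases before to 50 bases after each start, held 12 windows for 6 of the 9 genes (Rarres1, Crabp1, Aldh1a1, Rarb, Stra6 and Dhrs3). No window was given for Rarres2, Crabp2 and Aldh1a3. The motif searched was a direct repeat of 2 hexamers with a spacer of 5 bases, on both strands. Each hexamer was AGGTCA, with G also allowed as the first base and T as the third. It was found in 1 of the 12 windows, that of Rarb, and in 32 of all 32851 windows (0.0974%). In the Rarb window it lay on the strand of the gene, 53 to 37 bases before the start (chr14:16575506-16575535 for the 30 bases shown). In GENCODE an exon of Rarb overlaps those 30 bases. With a spacer of 1 or 2 bases the repeat was in none of the 12 windows and in 0.222% and 0.268% of all windows. A single hexamer was in 4 of 12 windows and in 43.7% of all windows. Capitals mark the hexamers in the sequences below, written 5′ to 3′ on the strand of each gene. The stretches of Rarres1 (chr3:67515524-67515773), Dhrs3 (chr4:144892577-144892826) and Stra6 (chr9:58128838-58129087) are the 250 bases before a start that overlap no exon, shown for comparison. A stretch each of Crabp1 and Aldh1a1 also overlaps no exon and is not shown. That of Stra6 lies within the Stra6 gene, before a start inside it. In Rarres1 the capitals are a hexamer read on the opposite strand. A match of letters is a description and not a binding site.
Rarb: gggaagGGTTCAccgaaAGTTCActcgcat
Rarres1: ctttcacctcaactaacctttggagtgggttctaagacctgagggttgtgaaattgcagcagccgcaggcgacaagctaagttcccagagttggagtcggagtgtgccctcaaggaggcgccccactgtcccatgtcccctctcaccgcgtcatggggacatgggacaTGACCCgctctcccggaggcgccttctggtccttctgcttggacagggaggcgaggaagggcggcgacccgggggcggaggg
Dhrs3: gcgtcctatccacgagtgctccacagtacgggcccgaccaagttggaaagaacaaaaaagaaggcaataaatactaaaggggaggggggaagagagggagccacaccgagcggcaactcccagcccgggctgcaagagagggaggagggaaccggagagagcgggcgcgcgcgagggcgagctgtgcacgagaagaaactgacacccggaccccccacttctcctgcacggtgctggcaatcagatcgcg
Stra6: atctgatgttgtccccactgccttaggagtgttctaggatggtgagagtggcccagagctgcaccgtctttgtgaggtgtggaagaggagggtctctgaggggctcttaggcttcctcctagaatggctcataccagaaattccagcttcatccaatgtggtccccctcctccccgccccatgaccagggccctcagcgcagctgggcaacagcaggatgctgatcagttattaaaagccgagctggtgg

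Rarres1 (ENSMUSG00000049404, chr3:67478972-67515523, minus strand), known as a gene that responds to retinoids, was near the detection limit in 4 groups. Mono-culture libraries had 0.165, 0.495, 0.456 and 0.229 CPM, which are 3 to 9 counts. Clones H and V and KPC1 ranged from 0.102 to 0.912 CPM and overlapped mono-culture. The other 5 clones lay above every mono-culture library in each library: clone K had 11.7, 13.1, 8.88 and 4.77 CPM, clone N had 6.03, 5.09, 2.01 and 4.14 CPM and clone M had 4.28, 4.37, 1.38 and 4.85 CPM. Clone T had 2.70, 0.659, 1.97 and 5.48 CPM, and clone E had 1.96, 4.84, 2.09 and 1.53 CPM. In the order of group means (K, N, M, T, E, then V, KPC1, H and mono-culture), the only neighbours without overlap were clones E and V. This is the pattern Rarres1 was picked for, and of the mono-culture libraries 0 reached the level the low count filter asked for. The fitted log2 values, given as a description, were 2.67 for the mean of the 7 clones against mono-culture and -2.38 for KPC1 against that mean. Of the 28 libraries with clones, 23 lay above every mono-culture library.

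Rarres2 (ENSMUSG00000009281, chr6:48569696-48572789, minus strand), which encodes the secreted protein chemerin, had 86 counts in the 36 libraries together. Its highest values were 9, 8, 4 and 12 counts with clone M. No other group exceeded 7 counts in a library. It was below the low count filter. In a fit of all genes with a count its log2 fold change with clone M was 2.37 (SE 0.778, edgeR adjusted p = 0.04), given as a description. No other line was called in that fit, where the value with clone H was -2.42 (SE 1.18, adjusted p = 0.13). Exons of Lrrc61 overlap those of Rarres2 on the opposite strand, with 3527 counts in the 36 libraries, so its few reads are uncertain in this respect.

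The libraries of 1 group were also compared among themselves, by subtracting the group mean of log2 CPM from each library. Over the 36 libraries, Rarb and Stra6 deviated together (Pearson's r = 0.744, permutation p adjusted over 28 gene pairs = 0.0022). Spearman's rho was 0.669, and r was 0.717 without the 2 libraries farthest from the median. Rarres1 and Aldh1a1 did so more weakly (r = 0.482, rho = 0.564, and r = 0.551 without 2 libraries). Values of Rarres1 are again a description with no test, though its pairs count among the 28. Dhrs3 had r = 0.493 with Rarb and 0.482 with Stra6, which did not pass (adjusted permutation p = 0.12 each), and no other pair without Rarres1 passed. Libraries of 1 replicate number shared part of their deviations: Crabp1 was above its group mean in 8 of 8 co-culture libraries of replicate 1 and in 0 of 8 of replicate 3. The relations were therefore also computed with replicate means removed and with whole groups permuted, an alternative chosen after seeing the data. Rarb and Stra6 kept theirs (r = 0.772, adjusted exact permutation p = 0.0018), and Rarres1 and Aldh1a1 had r = 0.463. Stra6 and Dhrs3 passed in this form (r = 0.588, adjusted exact permutation p = 0.014), and Rarb and Dhrs3 did not (r = 0.417, adjusted exact permutation p = 0.13).

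**Figure D3:**
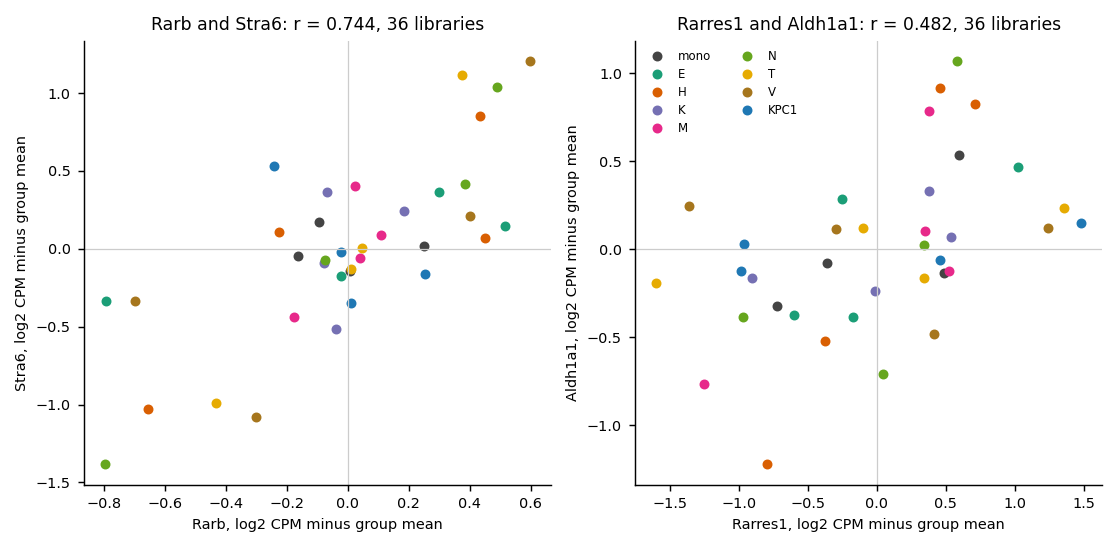
Deviations of log2 CPM from the group mean, for Rarb against Stra6 and for Rarres1 against Aldh1a1. Each point is 1 of the 36 libraries, coloured by group. Libraries with more Rarb than their group tended to have more Stra6 (r = 0.744). The right panel is looser (r = 0.482) and is a description with no test.

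The sum of the epithelial markers, mostly Krt18, Krt8, Krt19 and Cdh1, moved with some of these genes and not detectably with others. The summed epithelial markers were set against each gene within the 8 co-culture groups over 32 libraries, with log2 values less the group mean. Crabp2 rose with the sum (r = 0.765, permutation p adjusted over 9 relations = 0.0021, rho = 0.758, and r = 0.724 without the 2 farthest libraries). So did Aldh1a3 (r = 0.54, adjusted permutation p = 0.0041, rho = 0.643, and r = 0.63 without 2). With replicate means removed and whole groups permuted, both still passed (r = 0.639 for Crabp2, adjusted exact permutation p = 0.039, and 0.608 for Aldh1a3, adjusted exact permutation p = 0.0045). Crabp1 went against the sum (r = -0.487, adjusted permutation p = 0.039, rho = -0.524, and r = -0.536 without 2), but not once replicate means were removed (r = -0.123, adjusted exact permutation p = 0.74). The clone K libraries, which split for Crabp2, split for the epithelial sum too, at 53.4 and 21.3 CPM in replicates 1 and 2 and 238 and 307 CPM in replicates 3 and 4. For Rarb (r = -0.124), Stra6 (-0.125) and Dhrs3 (-0.0311) the relation did not pass (adjusted permutation p = 0.65 to 0.89). For Aldh1a1 r was -0.338 (adjusted permutation p = 0.084). Rarres1, counted among the 9 relations, had r = -0.0588, given as a description. Whether the RNA behind this sum has a part in the differences between groups was not tested.

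**Figure D4:**
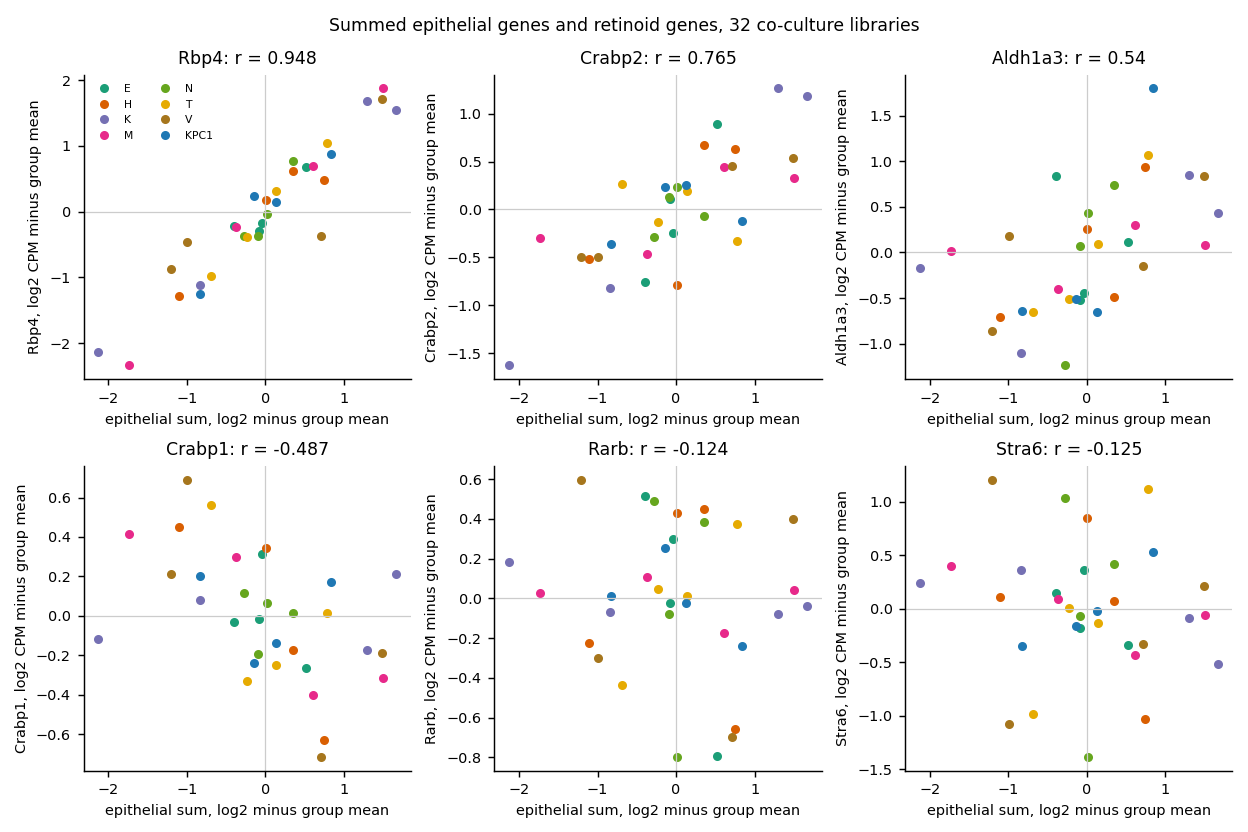
Deviation of each gene from its group mean (log2 CPM) against that of the summed epithelial markers (log2), for 6 genes. Points are the 32 co-culture libraries, coloured by line. The points of Rbp4 and Crabp2 lie along a rising line, those of Rarb and Stra6 do not (r = -0.124 and -0.125).

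Other genes of the pathway were taken from a list of 47, of which 37 passed the low count filter. For the mean of the clones 10 rose (27% of the 37, against 24.3% of all genes) and 8 fell (21.6% against 24.9%), with a median log2 fold change of 0.14 against 0.01 over all genes. Among the clones 32 of 37 differed (86.5%, against 67.5% of all genes). By line, between 12 of the 37 (clone K, 32.4% against 19.1% of all genes) and 25 (clone V, 67.6% against 58.3%) were called. Of the 37, Rbp4, Aldh1a2 and Cyp26b1 passed the filter through the co-cultures only and Adh1 through the mono-culture only. Calls of these genes against mono-culture are included in the counts and are a description. The 3 retinoic acid hydroxylase genes were low: Cyp26a1 and Cyp26c1 were below the filter, and Cyp26b1 had 0.530 ± 0.192 CPM in mono-culture against 3.24 ± 1.95 CPM for clone N (SD, n = 4 each), where it rose (log2 fold change 2.58, adjusted p = 0.00015). It was also called higher with KPC1 (1.63, adjusted p = 0.0073) and clone T (1.26, adjusted p = 0.043), and with no other line.

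In uptake and transport, Rbp4, the carrier of retinol in blood, had 0.0551, 0, 0 and 0.229 CPM in mono-culture, at most 5 counts. It reached 25.7, 56.4, 25.6 and 32.3 CPM with clone N and 15.6 to 30.7 CPM with clone E, but only 0.0650 to 1.64 CPM with clone K. Rbp4 was called higher in 7 of 8 co-cultures, all but clone K. This is a description, since only the co-cultures carried Rbp4 past the filter. Within groups Rbp4, added to the relations after its levels were seen, had a larger correlation with the epithelial sum than any of the 8 members had (r = 0.948, adjusted permutation p = 9e-05, from the smallest p the resamples can give, 1e-05, rho = 0.92, and r = 0.928 without 2 libraries). Fabp5, which can also carry retinoic acid, fell in all 8 co-cultures, from 187 ± 9.77 CPM in mono-culture (SD, n = 4) to a group mean of at least 32.8 CPM (clone M) and at most 72.3 CPM (clone V) (mean clonal log2 fold change -1.81, adjusted p = 2.3e-11).

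Among the oxidising and reducing enzymes, Aldh1a2, the third member of the Aldh1a family, was at 0.242 ± 0.177 CPM in mono-culture. Only the co-cultures carried Aldh1a2 past the filter, so its rise against mono-culture is a description. It rose with 6 of 7 clones, to 3.43 ± 0.956 CPM for clone N and 3.31 ± 1.30 CPM for clone K (SD, n = 4 each; mean clonal log2 fold change 2.87, adjusted p = 4.9e-05). It was lower with KPC1 than with the mean of the clones (log2 difference -1.86, adjusted p = 0.0022). Adh1 had 14 to 31 counts in mono-culture (1.27 ± 0.458 CPM, SD, n = 4) and 0 to 11 counts in the co-cultures, given as a description since only mono-culture carried it past the filter. Dhrs4 fell for the mean of the clones (-1.10, adjusted p = 6.4e-09), but was not called with clones K and M (-0.22 each). Rdh5 rose for the mean of the clones (1.03, adjusted p = 8.7e-05), and Rdh10 was called higher with clone T alone (1.13).

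Among receptors and coregulators, Rarg rose slightly for the mean of the clones (0.27, adjusted p = 0.0092), most with clone M (0.62), while Rara (0.16) and Rxra (-0.21) were not called. Mean Rxra was 87.2 CPM in mono-culture. With clone H, clone V and KPC1 it was 60.1, 51.4 and 57.4 CPM, every library below mono-culture. Clones K and M had 92.6 and 97.1 CPM, and clones E, N and T 74.7 to 86.7 CPM. For the mean of the clones Nrip1 rose (0.61, adjusted p = 4e-04) and Ncoa1 fell (-0.41, adjusted p = 0.0031). Of the response genes, the nuclear receptor gene Nr2f1 rose in all 8 co-cultures (1.05, adjusted p = 1.7e-05) and most with clone M (1.74), where it had 55.8 ± 15.3 CPM against 16.7 ± 2.07 CPM in mono-culture (SD, n = 4 each). Rai14 (0.70) and Gprc5a (0.80) rose too. The homeobox genes Meis1 (-0.71, adjusted p = 1.2e-05) and Meis2 (-0.55, adjusted p = 0.00018) fell for the mean of the clones, but with clones K and M both were uncalled, with values from 0.20 to 0.33. Meis1 and Meis2 were lowest with KPC1 (-1.90 and -1.55).

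**Figure D5:**
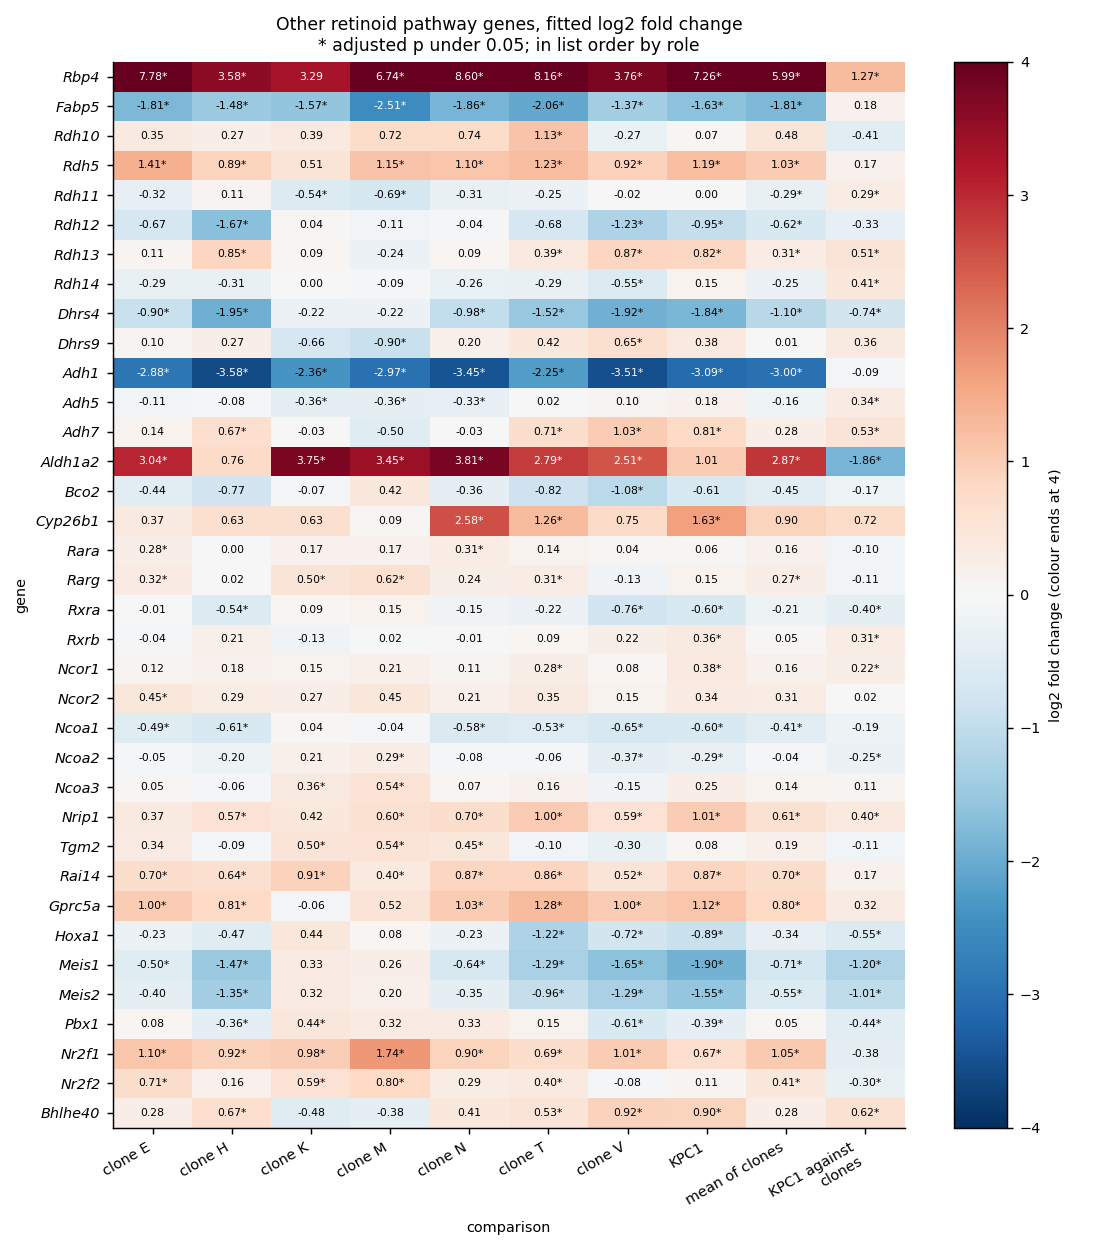
Fitted log2 fold changes of 36 of the 37 tested genes of the pathway list (rows, in order of role) in the same comparisons (columns). A star marks an adjusted p under 0.05. Stars of Rbp4, Aldh1a2, Cyp26b1 and Adh1 against mono-culture are a description. Fabp5, Rai14 and Nr2f1 keep 1 direction in all 8 co-cultures, with a star in each, while Meis1 and Meis2 are lowest with KPC1.

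The genes whose log2 CPM was most like that of a member over the 36 libraries were found among 11694 genes, as a description that includes the differences between groups. Those nearest to Rarb were Mmp3 (r = 0.899) and Stra6 itself (r = 0.891), and those nearest to Stra6 were Vipr1 (0.908) and Ptprv (0.898). Rarres1 was nearest to Lxn (0.933) and Sfrp1 (0.925), Aldh1a1 to Swap70 (0.899) and Fgfr2 (0.897), Crabp1 to Capn6 (0.872) and Htra1 (0.858), and Dhrs3 to Sepn1 (0.861) and Pex6 (0.859).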

How the data were processed

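RNA was measured in 36 libraries of sorted or mono-cultured fibroblasts, made from 200 ng of RNA with a strand-specific poly(A) kit and 14 cycles and read as 76 bp pairs. The authors deposited whole-number counts per gene for 39017 genes, unscaled, and RPKM values for 37746 genes. The submitters' processing notes name STAR, featureCounts, edgeR and mm10, and give no versions. The annotation and the strand setting are not given in the sources used here. Coordinates are from GENCODE and RefSeq of GRCm38, the same assembly as mm10. With 12532122 to 21985538 counts per library, 1 count is less than 0.1 CPM. Limits for counts of 0 cover counting error only, while intervals of log2 differences come from the quasi-likelihood fit and include the spread between libraries.

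The main test was edgeR 4.0.16 (R 4.3.3): filterByExpr left 14439 genes, libraries were scaled by TMM (0.957 to 1.07), and 1 robust quasi-likelihood model with 9 group coefficients and no covariate was fitted to all libraries, so groups share 1 estimate of the spread. Log2 CPM used a prior count of 1. Contrasts compared each co-culture and the mean of 7 clones with mono-culture, and KPC1 with the clones averaged, and an F-test compared the clones. Relations within groups used 100000 permutations of libraries within groups, two-sided, and, added after seeing the data, exact permutations of whole groups with replicate means removed. The procedure was tested on simulated data. Within groups no library pair differed as little as sampling noise allows (smallest chi-square per degree of freedom 5.53).

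The members, the pathway and marker lists and the rule for named genes (the members, the pathway list by role, and the 2 genes most like each member with at least 2 CPM) were chosen with earlier results of these data known. Rarres1 was selected on its values among clones and passed the filter through co-cultures only, so its fitted p-values, though planned for 2 contrasts, are not given. Of the pathway list, 1 gene is counted but not reported here. Alternatives were DESeq2 1.42.0, RLE or no scaling, no filter or at least 10 counts in every library, a block for replicate number, limma-trend (limma 3.58.1) on log2(RPKM + 1) and log2(RPKM + 0.1), and fits without 1 library at a time.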

Additional observations from a re-analysis of the deposited data

Results flagged for a closer look

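In 5 of 72 sets of 4 libraries 1 library stood apart from the other 3, where chance would flag about 1 in 20 sets. The gap as a share of the range was 0.833 for Rarres1 with clone E (replicate 2, 4.84 CPM against 1.53 to 2.09), 0.836 for Rarres1 with clone M (replicate 3, 1.38 against 4.28 to 4.85) and 0.977 for Aldh1a3 with KPC1 (replicate 1, 12.4 against 2.22 to 2.45). It was 0.857 for Rarb with clone K (replicate 2, 10.3 against 8.62 to 8.86) and 0.902 for Dhrs3 with clone V (replicate 1, 0.661 against 2.93 to 3.18).

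The change with co-culture differed between clones for the 7 genes tested, by edgeR's F-test over all genes, in which 67.5% of genes passed. The adjusted p was 1.4e-06 for Crabp1, 0.00099 for Crabp2, 3e-08 for Aldh1a1, 0.00034 for Aldh1a3, 2.2e-10 for Rarb, 9.6e-06 for Stra6 and 7.9e-09 for Dhrs3. Rarres1 was not tested there, since its pattern among clones is what it was picked for.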

How the results depend on the processing

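Of 653 values of single genes under other settings, 628 were unchanged, which meant the same direction and side of the threshold. For Rarres1 in single co-cultures it meant a shift smaller than the SD between libraries of that group. Counts of called members here include Rarres1, which has 1 call each for the mean of the clones and for KPC1 against them. These calls of Rarres1 are a description. Without Rarres1 the counts of the main fit were 5 for the mean of the clones and 4 for KPC1 against the clones. Requiring at least 10 counts in every library left 4 of the genes (Crabp1, Rarb, Stra6 and Dhrs3), so counts of called members fell by construction to 2 for clones E, N and T, 1 for KPC1, 3 for the mean of the clones, 2 for KPC1 against the clones and 4 among the clones. On log2(RPKM + 1), which shrinks low genes, the calls of Aldh1a3 for the mean of the clones (0.34, adjusted p = 0.08 in limma), Crabp2 with clone E (adjusted p = 0.071) and Stra6 with clone N (adjusted p = 0.05) were lost, and on log2(RPKM + 0.1) those of Rarb with clone E (limma adjusted p = 0.054) and Stra6 with clone N (0.075). Rarb with clone V was called lower without scaling (adjusted p = 0.034), with at least 10 counts (0.05), with the block (0.045) and on log2(RPKM + 0.1) (0.024). The values of Rarres1, a description, were smaller on log2(RPKM + 1) for every clone. They were 2.65 against 4.84 in the main fit with clone K and 1.13 against 3.02 with clone T. DESeq2 also called Stra6 with clones E and T and Aldh1a3 with clones E and K. Without a filter, Crabp2 with clone E was lost (edgeR adjusted p = 0.055), and the uncalled values of Rarb with clone H (0.02) and Dhrs3 with clone T (0.01) changed sign.

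Leaving out 1 library at a time, 3062 of 3132 values of single genes were unchanged by the same rule. The count of called members ranged from 2 (without mono-culture replicate 1) to 6 for clone E, 3 to 4 for clones H, N and V, 4 to 5 for clones K, M and T and for KPC1 against the clones, 6 to 7 for the mean of the clones, and stayed at 3 for KPC1 and 7 among the clones. Counts for the mean of the clones and for KPC1 against the clones again include Rarres1, whose calls are a description. Signs changed only for uncalled values: Rarb with clone H (range -0.16 to 0.18), Stra6 with clones H (-0.37 to 0.21) and V (-0.76 to 0.09), Crabp2 with clones M (-0.65 to 0.10), N (-0.03 to 0.73) and T (-0.25 to 0.49), Dhrs3 with clone T (-0.28 to 0.13) and for KPC1 against the clones (-0.24 to 0.07), and Aldh1a3 with clone V (-0.67 to 0.05).

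Replicate numbers were not used as pairs, since the labels tie no number to a shared culture or day, and every same-number correlation was over 0.1 in only 0 of 8 pairs of a co-culture and the mono-culture and 3 of 28 pairs of co-cultures. Yet 23 of 32 co-culture libraries were most alike to their own number, and library numbers in the titles run through all co-cultures of replicate 1 before those of replicate 2; neither is a stated pairing. With replicate means removed, the relations of the epithelial sum with Rarb (r = 0.151), Stra6 (0.16) and Dhrs3 (0.304), none of which passed, changed sign. With the replicate block Stra6 with clone E (1.04, adjusted p = 0.037) and Rarb with clone V (-0.64, adjusted p = 0.045) were also called by edgeR, and no count of called members moved by over 1.5 times. Genes of a few counts per library, Rarres2 and mono-culture Rarres1 and Rbp4 among them, are limited by depth.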
